A study of Mus musculus with 8 samples.

Results

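The genes examined were 10 that carry serotonin from its synthesis to its receptors: *Tph1*, *Tph2* and *Ddc* for synthesis, *Slc18a1* and *Slc18a2* for storage, *Maoa* and *Maob* for breakdown, and the receptor genes *Htr1d*, *Htr2b* and *Htr3a*. A probe was taken when its accession on the array maps to one of these symbols in the RefSeq annotation, and every such probe was kept. All 10 genes were found among the 21154 genes that could be named on the array, on 12 of the 55681 non-control probes; 8 genes had 1 probe, and *Ddc* and *Slc18a2* had 2 each.

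The comparison was between islets of 4 β-CB1R+/+ mice (labelled WT) and 3 β-CB1R-/- mice (labelled CB1 KO), on 1-colour Agilent arrays. All were male C57BL/6 mice on a standard diet, and by the study's methods both genotypes were *Cnr1* flox/flox and received tamoxifen. Only the β-CB1R-/- mice carried MIP-Cre/ERT, a tamoxifen-activated Cre driven by the mouse insulin promoter on a construct generally described as holding a human growth hormone minigene; the transgene and the loss of the receptor therefore cannot be told apart here. The deletion was directed at beta cells, whereas whole hand-picked islets were hybridised. The age of these mice is not given in the sources used here. The sample labels say only CB1 WT or CB1 KO and their text on the animals speaks of a global knockout, while the title and design of the series name the beta cell knockout. For β-CB1R-/- replicate 2 there were 2 arrays of the same mouse, which were averaged.

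Serotonin is formed from tryptophan. Tryptophan hydroxylase, encoded by *Tph1* outside the nervous system and by *Tph2* mainly in serotonin neurons, carries out the rate-limiting step, and aromatic amino acid decarboxylase (*Ddc*) completes the synthesis. Beta cells store serotonin together with insulin, and mouse islets are known to raise *Tph1* strongly in pregnancy, downstream of the prolactin receptor.

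The upstream sequences of the tryptophan hydroxylase genes are shown because *Tph1* was the only one of the 10 genes with a difference past the threshold, as described below. The RefSeq table for GRCm38.p6 held promoters of 7 of the 10 genes. Each line gives the 250 bases before an annotated start, read 5′ to 3′ on the strand of the gene, and capitals mark TGACG or, for the same letters on the opposite strand, CGTCA, which form the core of the cAMP response element. The first *Tph1* start follows chr7:46672538-46672787, the second follows chr7:46667378-46667627 and that of *Tph2* follows chr10:115185023-115185272, all on the minus strand.
Tph1, first start: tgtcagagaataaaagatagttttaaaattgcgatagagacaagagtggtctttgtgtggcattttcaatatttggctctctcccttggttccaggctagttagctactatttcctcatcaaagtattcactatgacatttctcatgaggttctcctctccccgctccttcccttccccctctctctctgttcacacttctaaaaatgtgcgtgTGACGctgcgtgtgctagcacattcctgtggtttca
Tph1, second start: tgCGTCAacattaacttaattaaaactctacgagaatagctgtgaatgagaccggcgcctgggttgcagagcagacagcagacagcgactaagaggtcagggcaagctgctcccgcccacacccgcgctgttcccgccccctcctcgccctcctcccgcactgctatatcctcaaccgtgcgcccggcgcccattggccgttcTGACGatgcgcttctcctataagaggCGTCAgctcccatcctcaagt
Tph2: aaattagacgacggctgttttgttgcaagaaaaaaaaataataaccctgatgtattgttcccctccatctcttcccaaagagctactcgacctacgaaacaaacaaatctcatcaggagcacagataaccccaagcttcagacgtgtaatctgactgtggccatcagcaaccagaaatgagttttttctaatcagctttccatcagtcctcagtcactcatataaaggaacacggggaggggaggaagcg
The motif TGACG was found once before the first *Tph1* start, 36 to 32 bases upstream, and 3 times before the second, at 248 to 244, 47 to 43 and 21 to 17 bases upstream. It was not found before *Tph2*. Among the 10 promoters of the 7 genes it lay in 3, the other being that of *Maoa* (209 to 205 bases upstream), and 17.8% of 32851 mouse promoters of the same length hold it on either strand. The letters TTCNNNGAA, the pattern bound by STAT5, were in 0 of the 10 and in 7.02% of all promoters. These matches describe letters in a window and are not measured binding sites.

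Intensities below are log2 values relative to the 75th percentile of the same array, so that 0 is the intensity of a probe brighter than 75% of the others. A spot counts as detected where the scanner software marked it well above background. Different probes bind with different strength, and levels are compared only within a probe. *Cnr1*, the targeted gene, was at −1.11, −0.77, −0.53 and −0.02 in the 4 β-CB1R+/+ mice and at −2.30, −3.13 and −2.28 in the 3 β-CB1R-/- mice. The genotypes did not overlap at *Cnr1*, and the difference of −1.97 (SE 0.327) had an adjusted p of 0.189 by limma; whether this probe lies within the deleted stretch is not known here. The arrays lay on 1 slide with the genotypes in separate rows, so that position and genotype cannot be told apart, and between 33300 and 39984 probes per array were detected. Beta cell markers, *Ins1* and *Ins2* among them, were detected on every array (9 of 9).

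Of the 7 genes of the route that could be tested, 1 differed between the genotypes past the threshold. *Tph1* was close to background in β-CB1R+/+ islets and bright in every β-CB1R-/- mouse. Its rise was 165-fold with undetected β-CB1R+/+ arrays set to their detection floor, and 59.7-fold by a background correction that compresses dim probes. The other tryptophan hydroxylase gene, *Tph2*, was also separated between the genotypes, at a far lower intensity, and did not pass the threshold. Decarboxylase, vesicle transporter and monoamine oxidase genes were detected in both genotypes with differences within the spread between mice, and the 3 receptor genes were at or near background.

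Testing required detection in 3 or more of the 7 mice, and 9 of the 12 probes, for 7 of the 10 genes, met this. limma called 1 of the 9, *Tph1*, at an adjusted p under 0.05 over all 38203 tested probes; 0.113% of all tested probes were called, and 0.110% were called higher in β-CB1R-/- islets. The genotypes did not overlap at 2 of the 9, *Tph1* and *Tph2*, against 4.14% of all tested probes. The median difference over the 9 was 0.08, beside −0.02 over all tested probes. *Tph1* and *Tph2* were detected on all β-CB1R-/- arrays and on 1 β-CB1R+/+ array each, so they entered the test mainly through the group in which they are brighter.

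**Figure D1:**
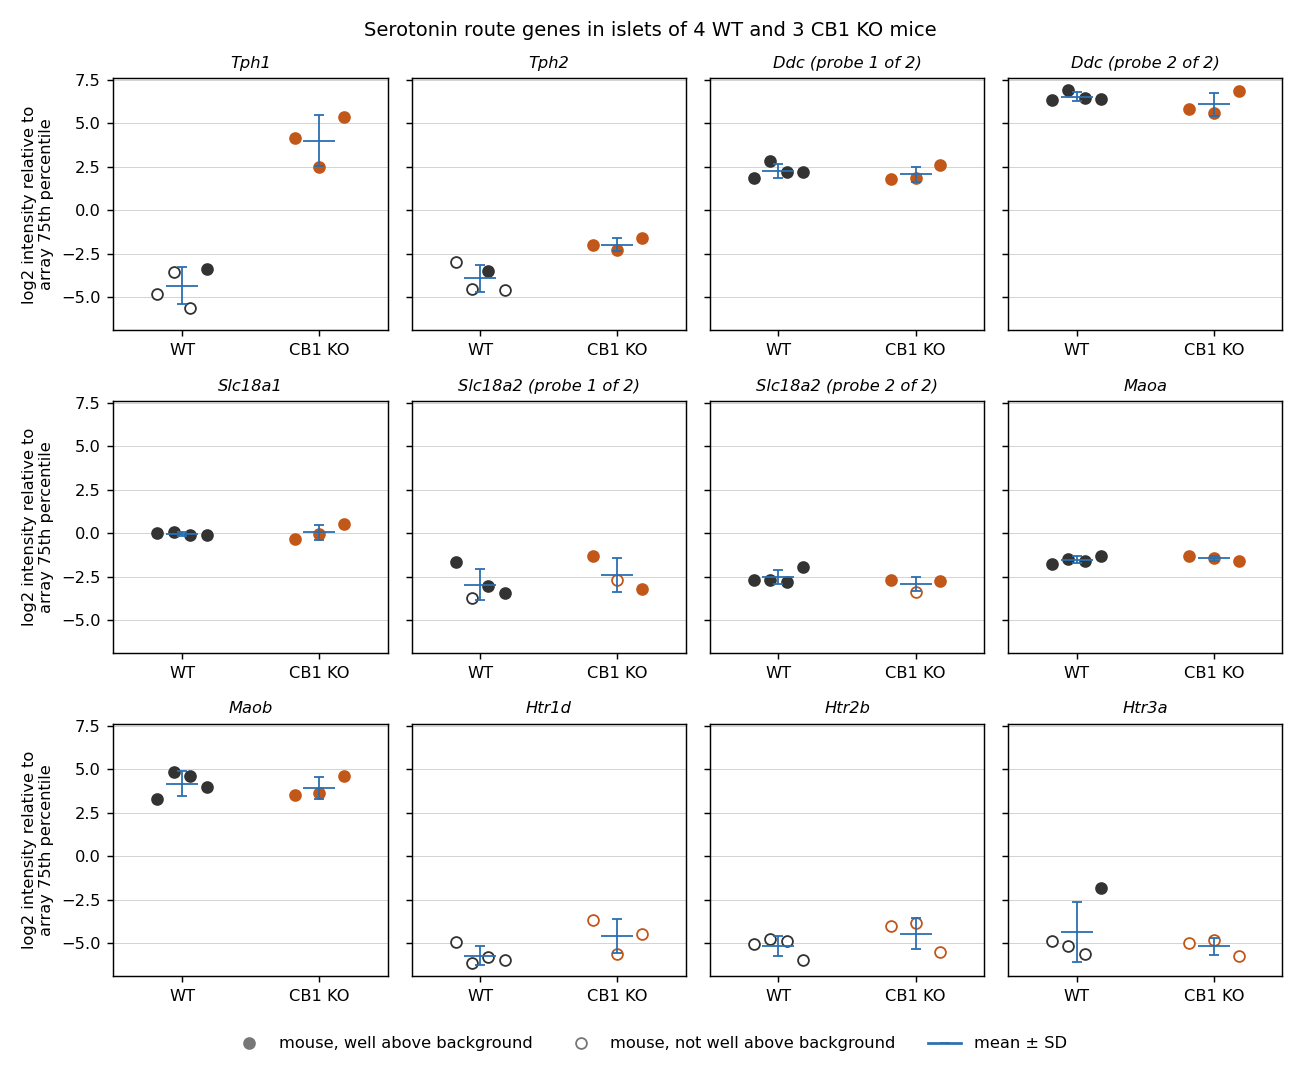
Log2 intensity relative to the array's 75th percentile (vertical axis, the same in all panels) of the 12 probes of the serotonin route in islets of 4 WT (β-CB1R+/+) and 3 CB1 KO (β-CB1R-/-) mice, 1 panel per probe; each circle is a mouse, filled where the probe was detected, and the blue line and bar are the mean and SD. The 3 CB1 KO mice sit between 2.49 and 5.39 for Tph1 with all WT mice below −3.38, while the circles of Ddc, Slc18a1, Slc18a2, Maoa and Maob overlap; heights are not comparable between panels.

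At the rate-limiting step, the *Tph1* probe (A_55_P2094262) read −4.82, −3.55, −5.61 and −3.38 in β-CB1R+/+ replicates 1 to 4, with only the array of replicate 4 well above background. In the β-CB1R-/- mice it read 4.15 in replicate 1, 5.39 in replicate 3, and 2.42 and 2.56 on the repeat arrays of replicate 2. All β-CB1R-/- mice were thus above all β-CB1R+/+ mice, replicate 3 highest and replicate 2 lowest, and the repeat arrays differed by 0.13. On the linear scale these intensities were 17.7, 42.0, 5.36 and 5.88 times the 75th percentile of their arrays.

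The mean of *Tph1* was −4.34 ± 1.06 (SD, n = 4) in β-CB1R+/+ and 4.01 ± 1.46 (SD, n = 3) in β-CB1R-/- islets. The difference of 8.35 on the log2 scale (SE 0.763, 95% confidence interval 6.59 to 10.11) had a limma adjusted p of 0.0131. Because 3 of 4 β-CB1R+/+ arrays were not well above background, the size of this difference is uncertain. With each of these arrays set to its detection floor where that was the higher, the difference was 7.37, or 165-fold. This value is an estimate subject to the spread between mice and not a minimum. A normexp background correction, which compresses dim probes, gave 5.90, or 59.7-fold. By the exact two-sided permutation test over 35 splits of the mice, p was 0.0286, the smallest this design allows.

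The call of *Tph1* rested on few mice. Without β-CB1R+/+ replicate 3 the difference was 7.93 with a limma adjusted p of 0.0508, without β-CB1R-/- replicate 2 it was 9.11 with 0.0558, and without β-CB1R-/- replicate 3 it was 7.66 with 0.0805. On leaving out any other single mouse the call held, with a limma adjusted p from 0.0355 to 0.0423. The direction was the same in all of these. In bulk islets, more cells with the transcript and more transcript per cell cannot be told apart.

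*Tph2*, the enzyme gene of serotonin neurons, read −2.98, −4.53, −3.50 and −4.59 in the β-CB1R+/+ mice, detected only in replicate 3 (probe A_55_P2162712). It read −2.0 and −1.60 in β-CB1R-/- replicates 1 and 3, and −2.23 and −2.36 on the arrays of replicate 2, detected on all of them. Every β-CB1R-/- value lay above every β-CB1R+/+ value, and the nearest mice of the genotypes were at −2.98 and −2.30. The means were −3.90 ± 0.79 (SD, n = 4) and −1.96 ± 0.35 (SD, n = 3). Their difference of 1.94 (SE 0.426, 95% confidence interval 0.95 to 2.92) did not pass the threshold, with a limma adjusted p of 0.604. The exact permutation p was 0.0571. With undetected β-CB1R+/+ arrays set to their floor in the same way, the difference was 2.95-fold, and normexp gave 0.70, or 1.62-fold.

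*Ddc*, which turns 5-hydroxytryptophan into serotonin and L-dopa into dopamine, was detected on all 8 arrays by both of its probes, which are annotated to different transcripts. The brighter probe (A_55_P2110497) read 6.37, 6.93, 6.46 and 6.42 in β-CB1R+/+ islets. In β-CB1R-/- islets it read 5.84 and 6.84 in replicates 1 and 3, and 5.61 and 5.60 on the arrays of replicate 2. The genotypes overlapped through the high values of β-CB1R+/+ replicate 2 and β-CB1R-/- replicate 3. The difference was −0.45 (SE 0.323, 95% confidence interval −1.19 to 0.30; limma adjusted p 0.999).

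The dimmer *Ddc* probe (A_52_P63905) read 1.85, 2.83, 2.20 and 2.19 in β-CB1R+/+ islets, and 1.79 and 2.59 in β-CB1R-/- replicates 1 and 3 with 1.85 and 1.92 on the arrays of replicate 2. The same mice, β-CB1R+/+ replicate 2 and β-CB1R-/- replicate 3, were the highest of their genotype. Its difference was −0.18 (SE 0.301, 95% confidence interval −0.87 to 0.52; limma adjusted p 0.999), of the same sign as that of the other probe. Thus the decarboxylase transcript was present in both genotypes, and neither probe showed a rise of the kind seen at *Tph1*.

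Of the vesicular monoamine transporters, which load serotonin into granules, *Slc18a1* (A_55_P2107432) was detected on all 8 arrays. It read 0.00, 0.11, −0.12 and −0.09 in β-CB1R+/+ islets. The β-CB1R-/- mice were at −0.31 in replicate 1, 0.52 in replicate 3, and 0.00 and −0.02 on the arrays of replicate 2. These values lay on both sides of the β-CB1R+/+ range, and the difference was 0.09 (SE 0.233, 95% confidence interval −0.44 to 0.63; limma adjusted p 0.999).

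*Slc18a2*, the transporter of monoamine neurons, was near background, and its probes differed in sign. Probe A_55_P2143946 read −2.66, −2.68, −2.79 and −1.93 in β-CB1R+/+ islets, and −2.66 and −2.72 in β-CB1R-/- replicates 1 and 3 with −3.35 and −3.39 on the arrays of replicate 2. The other probe (A_55_P2000489) read −1.64, −3.69, −3.0 and −3.44, and then −1.31 and −3.19 with −2.0 and −3.35 on the arrays of replicate 2. Its repeat arrays of 1 mouse differed by 1.35, about as much as separate mice. The differences were −0.40 (SE 0.287, 95% confidence interval −1.06 to 0.26) and 0.55 (SE 0.590, 95% confidence interval −0.81 to 1.91), both with a limma adjusted p of 0.999. The former probe was detected on 7 of 8 arrays and the latter on 6 of 8.

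The monoamine oxidases, mitochondrial enzymes that break serotonin down, were detected on all arrays. *Maoa* (A_55_P2055257), the form with the higher affinity for serotonin, read −1.74, −1.46, −1.60 and −1.27 in β-CB1R+/+ islets, and −1.30 and −1.60 in β-CB1R-/- replicates 1 and 3 with −1.32 and −1.51 on the arrays of replicate 2. The genotypes overlapped, with a difference of 0.08 (SE 0.195, 95% confidence interval −0.37 to 0.53). *Maob* (A_51_P302566) read 3.27, 4.87, 4.59 and 3.99, and 3.53 and 4.64 with 3.59 and 3.64 on the arrays of replicate 2. Its β-CB1R-/- values all lay within the β-CB1R+/+ range, and its difference was −0.25 (SE 0.437, 95% confidence interval −1.26 to 0.76). Both had a limma adjusted p of 0.999.

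**Figure D2:**
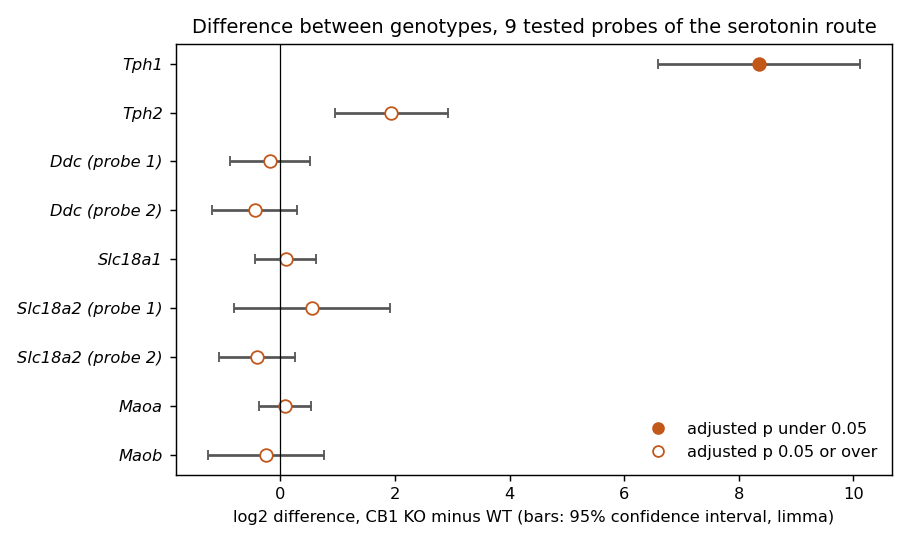
Log2 difference between CB1 KO (β-CB1R-/-, n = 3) and WT (β-CB1R+/+, n = 4) islets for the 9 tested probes of the serotonin route, with the 95% confidence interval from limma as bars; a filled circle has an adjusted p under 0.05. Tph1 stands at 8.35 and Tph2 at 1.94, both with intervals above 0, and the intervals of the other 7 probes include 0.

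None of the receptor genes among the 10 could be tested. *Htr2b*, a Gq-coupled receptor that mediates the effect of serotonin on beta cell mass in pregnancy, was well above background on no array, with readings from −5.99 to −4.76 in β-CB1R+/+ and from −5.48 to −3.84 in β-CB1R-/- islets. *Htr1d*, a Gi-coupled receptor, was likewise detected on no array, with readings from −6.16 to −4.94 and from −5.63 to −3.65. *Htr3a*, the serotonin-gated ion channel, was detected on the array of β-CB1R+/+ replicate 4 alone, at −1.83; the other β-CB1R+/+ mice were between −5.64 and −4.87 and the β-CB1R-/- mice between −5.75 and −4.83. Readings this low have no order, so no fold is given, and they do not show that the receptors were absent.

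Genes that feed, branch from or receive the output of the same route were followed in 10 lists holding 63 genes, of which 62 had a probe and 45 were tested. None of their 53 tested probes passed the threshold by limma, against 0.113% of all tested probes. An unadjusted p under 0.05 was reached by 5 of the 53, against 3.62% of all tested probes, and the methods' *t* test gave 4 such probes and likewise none after adjustment. The brightest probe was higher in β-CB1R-/- islets for 25 genes and lower for 20, with a median difference of 0.05, beside −0.04 over the brightest probes of all named genes. The genotypes did not overlap at the brightest probe of 6 of the 45, against 4.14% of all tested probes.

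The genes of tetrahydrobiopterin, the cofactor that tryptophan hydroxylase needs, were detected in full, 8 of 8 on all arrays, with differences from −0.24 to 0.22. *Gch1*, the enzyme that starts cofactor synthesis, differed by −0.19 (SE 0.264), and *Qdpr*, which recycles the cofactor, by 0.11 (SE 0.174). Thus the cofactor genes were present in β-CB1R+/+ islets too, where *Tph1* was near background.

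Tryptophan transporters were detected in full, 5 of 5. The heavy and light chain of one large neutral amino acid transporter did not overlap between genotypes. *Slc7a5*, the light chain, read 1.73, 1.23, 1.59 and 1.53 in β-CB1R+/+ and 1.89, 2.39 and 1.83 in β-CB1R-/- islets, a difference of 0.51 (SE 0.222, limma adjusted p 0.999). *Slc3a2*, the heavy chain, read 5.10, 4.95, 5.23 and 5.24 and then 5.37, 5.81 and 5.24, a difference of 0.35 (SE 0.207, limma adjusted p 0.999). Both separations were narrow, and a further *Slc7a5* probe overlapped, with a difference of 0.21.

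On the kynurenine route, which draws tryptophan away from serotonin, 4 of 8 genes were tested. Of its entry enzymes, *Ido1* and *Ido2* were detected on 0 and 1 of the 8 arrays. *Tdo2*, another entry enzyme, was detected on all 8 arrays and differed by −0.37 (SE 0.325, limma adjusted p 0.999). *Afmid*, the formamidase of the next step, differed by 0.81 (SE 0.334, limma adjusted p 0.999) without overlap. In serotonin uptake, the transporter *Slc6a4* was detected on 2 β-CB1R+/+ and 3 β-CB1R-/- arrays and differed by 0.69 (SE 0.908). *Slc29a4*, a low-affinity monoamine transporter detected throughout, differed by −0.48 (SE 0.245). The largest difference among these transporters was at *Slc22a2*, −1.38 (SE 0.563, limma adjusted p 0.999), where the genotypes overlapped. *Slc22a2* was detected on 3 β-CB1R+/+ arrays and 1 β-CB1R-/- array. Of the 11 receptor genes outside the 10, 3 were tested (*Htr2a*, *Htr3b* and *Htr4*), with differences from −0.08 to 0.12.

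Among transglutaminases, which attach serotonin to proteins, *F13a1*, the coagulation factor XIII A chain, had lower values in all β-CB1R-/- mice: −0.94, −0.65, −0.99 and −0.35 in β-CB1R+/+ against −2.33, −3.09 and −2.09 in β-CB1R-/- islets. The difference was −1.77 (SE 0.291, limma adjusted p 0.185, exact permutation p 0.0286). A second, dimmer *F13a1* probe, detected on 3 of 8 arrays and not tested, did not show this fall. Its difference was 0.03, and the genotypes overlapped. *Th*, the hydroxylase of the catecholamine route that shares *Ddc* and the vesicle transporters, read 4.59, 5.41, 4.92 and 4.67 against 3.65, 3.63 and 4.38. Its difference of −1.01 (SE 0.288, limma adjusted p 0.999, exact permutation p 0.0286) ran opposite to those of *Tph1* and *Tph2*. *F13a1* and *Th* were named because their genotypes did not overlap. Their permutation p is therefore low by selection and adds no support. *Fev* and *Lmx1b*, transcription factors of serotonin neurons, were detected on all arrays of both genotypes and differed by −0.02 (SE 0.210) and 0.15 (SE 0.242). A second *Lmx1b* probe, also detected on all arrays, differed by −0.29 (SE 0.212), of the opposite sign. *Gata2* differed by −0.45 (SE 0.221) without overlap.

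**Figure D3:**
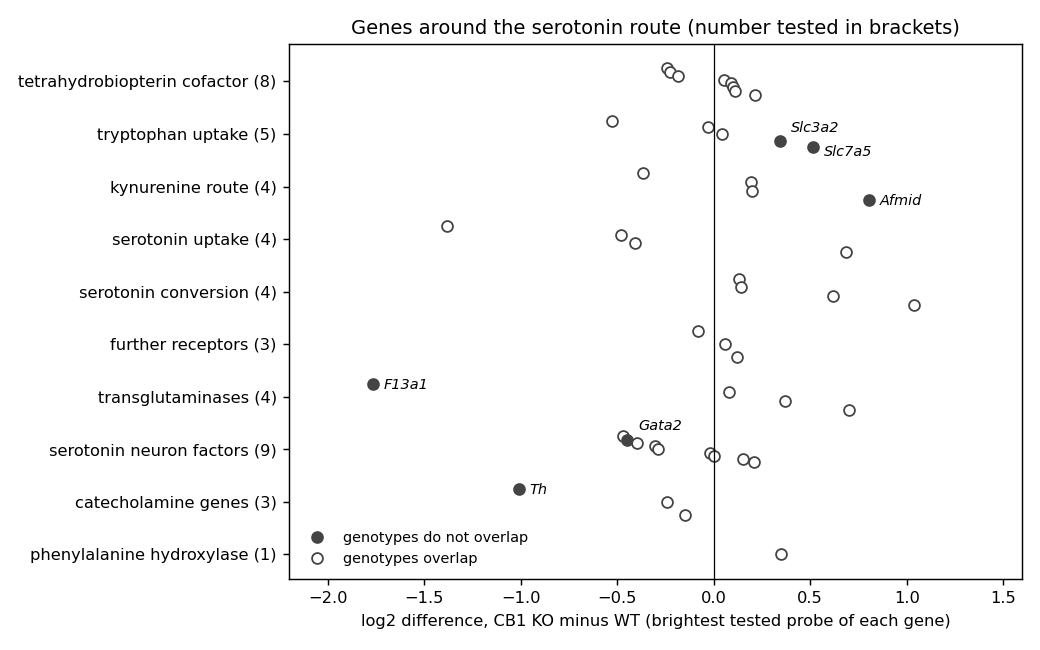
Log2 difference between CB1 KO (β-CB1R-/-, n = 3) and WT (β-CB1R+/+, n = 4) islets for the 45 tested genes of 10 lists around the serotonin route, 1 circle per gene (brightest probe), with the number tested in brackets; filled circles are genes whose mice do not overlap between genotypes. The differences run from −1.77 (F13a1) to 1.04, with 25 above 0 and 20 below, and none passed the threshold.

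Other cells that make or carry serotonin were followed by their markers. Of 8 mast cell markers on the array, 3 or 4 were detected per β-CB1R+/+ mouse and 4 or 5 per β-CB1R-/- mouse, with a summed intensity of 2.36 to 3.12 and of 1.79 to 2.74 times the 75th percentile. Among these markers, *Mcpt4*, *Fcer1a* and *Ms4a2* were detected on no array and 2 others on all arrays. *Cpa3* and *Cma1* were detected on 1 β-CB1R+/+ and 3 β-CB1R-/- arrays each. Of the 5 tested markers, 3 were higher and 2 lower in β-CB1R-/- islets, with a median difference of 0.27. Of 7 gut endocrine markers, 2 were detected on all arrays and *Lmx1a* on none, and the sums were 0.672 to 1.66 and 0.454 to 2.09. Of 6 platelet markers, 3 were detected on all arrays and *Ppbp* and *Gp1ba* on none, and the sums were 0.744 to 1.63 and 0.785 to 1.01. All of these sums overlapped between the genotypes, and the part of these cells in the *Tph1* result was not tested.

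Macrophage markers were higher by value in β-CB1R-/- islets for 6 of 6 genes, with a median difference of 0.55 and sums of 40.7 to 52.7 against 50.6 to 86.1, which overlapped; the lowest unadjusted limma p was 0.047 (*Mrc1*, adjusted p 0.999), and their part in the *Tph1* result was not tested. Alpha cell markers were lower by value for 4 of 5 genes, with a median difference of −0.59 and sums of 964 to 1288 in β-CB1R+/+ against 770 to 928 in β-CB1R-/- islets, which did not overlap; their part was not tested either. Markers of acinar cells, the exocrine neighbours of islets, were lowest in β-CB1R+/+ replicate 2 and β-CB1R-/- replicate 3, at means of 9.68 and 9.85 against 10.48 to 10.86 in the other 5 mice. These are the mice with the highest *Ddc* and *Maob* of their genotype, and in β-CB1R-/- islets also the highest *Tph1*; the part of acinar tissue in these values was not tested. The immediate-early gene *Fos* was at 6.31 and 5.34 in β-CB1R+/+ replicates 3 and 4 and at 5.84 in β-CB1R-/- replicate 2, while the others ranged from −1.59 to 0.75, and their part in the results was not tested. Of these mice, β-CB1R-/- replicate 2 had the lowest *Tph1* of its genotype and β-CB1R+/+ replicate 4 the only detected *Tph1* of its own. *Prlr*, the prolactin receptor that acts upstream of *Tph1* in pregnancy, read 5.05, 5.29, 4.61 and 4.49 in β-CB1R+/+ and 5.30, 4.32 and 6.45 in β-CB1R-/- islets. The genotypes overlapped, with a difference of 0.50 (SE 0.472, limma adjusted p 0.999), and they overlapped at a second *Prlr* probe too, with a difference of 0.65. By the first probe the order of the β-CB1R-/- mice was the one seen at *Tph1*, among only 3 mice. That order was not particular to *Prlr*. The mean log2 of beta cell markers had it too, at 6.36, 6.24 and 6.64 in β-CB1R-/- replicates 1 to 3. So did the means of alpha cell markers and of delta and PP cell markers, whereas those of acinar cell and macrophage markers did not. The part of *Prlr* in the *Tph1* result was not tested.

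The profile of *Tph1* over the 7 mice was compared with those of 16694 other genes, each centred on its own mean, by the root mean square difference in log2 units. The nearest were *Krtap13-1* at 1.64, *Sftpd* at 1.70, *Gdf3* at 1.85, *Lrrc55* at 2.12 and *Esr1* at 2.18. All were high in the 3 β-CB1R-/- mice and low in the 4 β-CB1R+/+ mice, with differences from 4.66 to 5.68, so that the likeness is mainly the separation of the genotypes. Within β-CB1R-/- islets only *Krtap13-1* kept the order of *Tph1*, with replicate 3 highest and replicate 2 lowest. *Sftpd*, *Gdf3*, *Lrrc55* and *Esr1* were lowest in replicate 1, and *Gdf3* was highest in replicate 2.

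**Figure D4:**
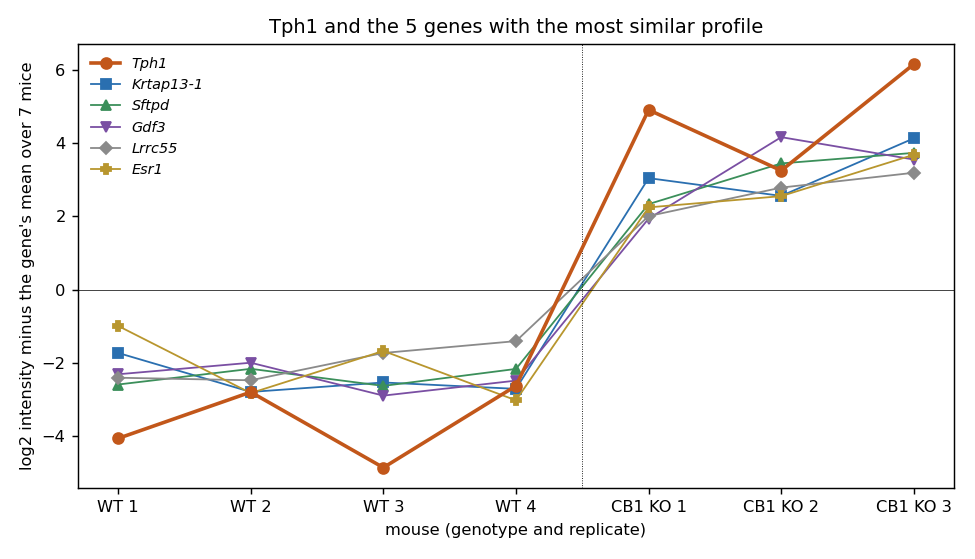
Log2 intensity of Tph1 and of the 5 genes with the nearest profile, each minus its own mean over the 7 mice (vertical axis), by mouse (horizontal axis; WT is β-CB1R+/+ and CB1 KO is β-CB1R-/-). All 6 lines lie below 0 in the 4 WT mice and above 0 in the 3 CB1 KO mice, and the Tph1 line spans the widest range.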

How the data were processed

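Islet RNA of 4 β-CB1R+/+ and 3 β-CB1R-/- mice was measured on 8 arrays. The authors deposited spot intensity values from Feature Extraction 11.5.1.1, background-subtracted but unscaled from array to array. The deposited Z score of each spot matched a recomputed one to within 0.00503. Here log2 intensity minus the 75th percentile of 59305 non-control spots was used; outlier spots were left out, spots of a probe averaged, and the 2 arrays of β-CB1R-/- replicate 2 averaged (detected where both were). No spot was saturated. Probes detected in at least 3 of 7 mice (38203) were fitted with limma 3.58.1 (R 4.3.3); tests were two-sided, adjusted by Benjamini-Hochberg over all of them, with a threshold of 0.05. Symbols came from RefSeq GRCm38.p6 (28026 of 55681 probes matched); the array header names another build, so no probe coordinates are given. For single genes an exact permutation test over 35 splits was added.

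The genes and lists were chosen with earlier results of these data known. Genes outside the 10 were named where they passed the threshold, did not overlap between genotypes, or were the context genes *Cnr1* and *Prlr*. *Gch1*, *Qdpr*, *Ido1*, *Ido2*, *Tdo2*, *Slc6a4*, *Slc22a2*, *Slc29a4*, *Htr2a*, *Htr3b*, *Htr4*, *Fev*, *Lmx1b* and the markers were named after their values were seen. Alternatives were a normexp correction (offset 50, on median intensities), quantile normalisation, the deposited Z scores, other filters, either repeat array, a replicate block, leaving out each mouse, an intensity trend and a *t* test (called the methods' *t* test). Student's *t* test is named in the study's general statistics, whereas for its array analysis the study cites an earlier article. In simulated data over 38203 probes for 4 against 3 mice, a log2 change of 1 was found for 22% of the changed probes. A change of 2 was found for 66%, of 4 for 98% and of 8 for 100%, with 10 false calls. The simulated noise was independent between probes, and all changes were increases. Variation that a mouse shares over many probes was not simulated, so these shares may not hold for the real arrays. The number of arrays limits the precision. Mice with the transgene alone and protein measurements were not analysed here.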

Additional observations from a re-analysis of the deposited data

Results flagged for a closer look

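In 4 β-CB1R+/+ mice, a single mouse lay far from the other 3 at 3 of the 57 probes examined, and chance gives about 2.85 (1 in 20). The brighter *Ddc* probe (A_55_P2110497) was at 6.93 in β-CB1R+/+ replicate 2, with the others between 6.37 and 6.46. *Slc18a2* (A_55_P2143946) was at −1.93 in β-CB1R+/+ replicate 4, with the others between −2.79 and −2.66. *Slc6a4* was at −5.04 in β-CB1R+/+ replicate 2, with the others between −2.75 and −2.34.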

How the results depend on the processing

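Over all probes 43 passed the threshold (42 higher in β-CB1R-/- islets), 23 without a filter on dim probes (23 higher), 24 with detection required on all 8 arrays (24 higher), and 0 with the replicate block (0 higher; 1689 at an unadjusted p under 0.05 by limma) or with the methods' *t* test after adjustment (0 higher; 1385 unadjusted). Leaving out 1 mouse gave 0 to 42 probes (0 to 42 higher): without β-CB1R+/+ replicates 1 to 4, 27, 15, 8 and 24, and without β-CB1R-/- replicates 1 to 3, 42, 0 and 6. *Tph1*, 1 call as reported, gave 0 with detection on all 8 arrays, where it was not tested, 0 with the replicate block (8.67, limma adjusted p 0.114), 0 by the *t* test after adjustment (0.361; unadjusted p 0.000305, limma 4.35e-06), and 0 to 1 on leaving out a mouse. Its adjusted p ran from 0.00255 to 0.361 over 17 alternatives and its difference was positive in all of them. Deviations of same-numbered mice from their group means correlated at 0.43, −0.28 and −0.06, and β-CB1R+/+ replicate 2 was most like β-CB1R-/- replicate 3 (0.51). With so few mice these correlations cannot show whether the shared numbers pair the mice. Of 158 values of single probes of the 10 genes, 150 kept direction and side of the threshold and 3 reversed: *Ddc* (A_52_P63905) to 0.012 without β-CB1R+/+ replicate 2 (−0.43 to 0.012 on leaving out a mouse), *Slc18a1* to −0.14 without β-CB1R-/- replicate 3 (−0.14 to 0.28), and *Maoa* to −0.015 with normexp; the cause was not tested. The wider lists had 0 calls under all 18 alternatives. Counting the mouse with repeat arrays as detected on either array, chosen after seeing the data, gave 43 calls. Low signal limits *Tph1* and *Tph2* in β-CB1R+/+ islets and the receptor genes in both genotypes.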
